A study of Nicotiana benthamiana with 3 samples.

Results

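The tags described here are the 42 array features of Nicotiana benthamiana leaves whose names begin with NbCD3U, out of 154 tags on a SuperSAGE array. They were chosen by name alone. The letter U was read as "up" in the sequencing comparison of leaves overexpressing NbCD3 with control leaves, a reading that the labels do not spell out. N. benthamiana is a relative of tobacco that is widely used to express genes transiently. SuperSAGE is a sequencing method that counts short tags from near the 3′ end of transcripts, and the tags with a large difference in that count were then made into probes of an array. The earlier sequencing step compared 10063 tags from GFP leaves with 10677 tags from NbCD3 leaves and kept tags differing by more than 4-fold.

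All leaves were infiltrated with Agrobacterium tumefaciens, a bacterium that carries a plasmid into plant cells, and all received the steroid dexamethasone 2 days later. Harvest followed 4 hours after the steroid. The plasmids held the gene for GFP (green fluorescent protein, the control), NbCD1 or NbCD3 in the GVG cassette, in which a chimeric transcription factor becomes active when it binds a glucocorticoid. There were 3 arrays, 1 each for GFP, NbCD1 and NbCD3, so that no value has a replicate and no test across samples could be made. Infiltration and steroid were common to all groups, and no leaf without them was measured. Each difference is thus one between single arrays of leaves with different transgenes on that shared background. With 1 array a group, an effect of the transgene cannot be told apart from one of the array, its labelling or the leaves used. The labels do not say how many plants and leaves went into each array. The free-text label of the NbCD1 sample contains the word control, and its group was taken from the source name instead.

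NbCD1 is known from screens in which overexpression in the leaf caused cell death, and its product is an ERF-type transcription factor (ethylene response factor) of class II. Proteins of that class bind promoters of ethylene and stress responsive genes and often carry a motif that represses transcription. The product of NbCD3 is not named in the labels. No tag is paired with a gene name or a sequence in those sources, so the members are described by tag name, and the induction of the transgenes themselves was not checked. Because the tags were selected on leaves treated in the same way, a higher value on the NbCD3 array is not independent evidence of their direction. Intensities of different tags depend on the probe as well as on the transcript, and changes are therefore read between arrays for 1 tag at a time. Where readings of different tags are set side by side below, they describe the array signal and not amounts of transcript.

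The pairing of names and values had to be settled first, because the deposited NbCD3 values ran against both other arrays. Over the 42 tags, the log2 intensities of the GFP and NbCD1 arrays correlated with a Pearson r of 0.86 (Spearman 0.87). For the NbCD3 array under its deposited names, r was -0.26 with GFP (Spearman -0.30) and -0.25 with NbCD1 (Spearman -0.26). The values were then read in NbCD3-first order. This takes the NbCD3 values in the sequence NbCD1 tags before NbCD3 tags, U before D, by number, and gives them to the names in the sequence NbCD3 tags before NbCD1 tags. Read so, r over the same 42 tags was 0.80 with GFP (Spearman 0.81) and 0.80 with NbCD1 (Spearman 0.82). Moving the values by a further 1 place in that sequence brought r with GFP to 0.034 in one direction and 0.071 in the other. Among the other 112 tags, r with GFP was -0.23 as deposited and 0.72 in NbCD3-first order. These are descriptions over tags of the same arrays, and the tags share array, labelling and scaling.

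**Figure D1:**
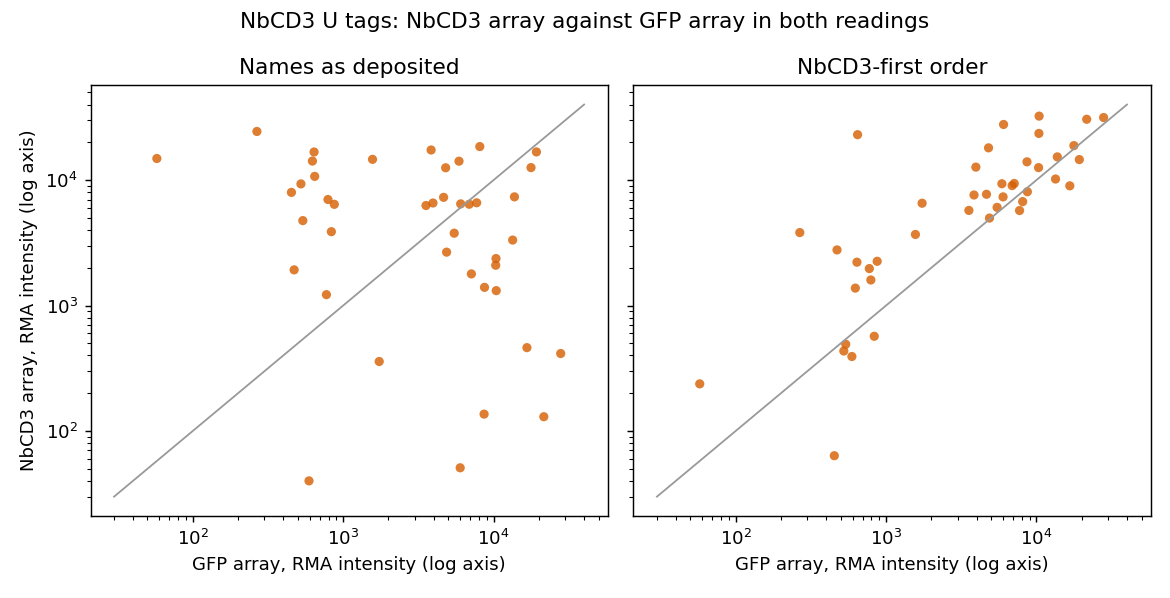
RMA intensity of the 42 NbCD3 U tags on the NbCD3 array (vertical, log axis) against the GFP array (horizontal, log axis), with the names as deposited on the left and in NbCD3-first order on the right; the grey line marks equal values. The points scatter without following the line on the left (r = -0.26) and lie along it on the right (r = 0.80).

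A second description used pairs of tags. It is not independent of the correlation, because tags near equal on GFP and NbCD1 tend to lie closer in a reading that follows those arrays. Between an NbCD3 U tag and any other tag, 13 pairs lay within 0.1 log2 units of each other on both the GFP and the NbCD1 array. The partner was an NbCD1 U tag in 8 pairs, an NbCD1 D tag in 4 and an NbCD3 D tag in 1. On the NbCD3 array the median gap within these pairs was 1.88 log2 units with the names as deposited (0.48 to 5.82) and 0.31 in NbCD3-first order (0.002 to 1.27). No pair (0 of 13) stayed within 0.1 on the NbCD3 array as deposited, and 5 did in NbCD3-first order. The pair NbCD3U15 and NbCD1U34 went the other way, with a gap of 0.90 as deposited and 1.27 in NbCD3-first order. Values of the NbCD3 array below are in NbCD3-first order unless the deposited names are mentioned, and the choice between the readings rests on these descriptions and not on a record of how the table was made.

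**Figure D2:**
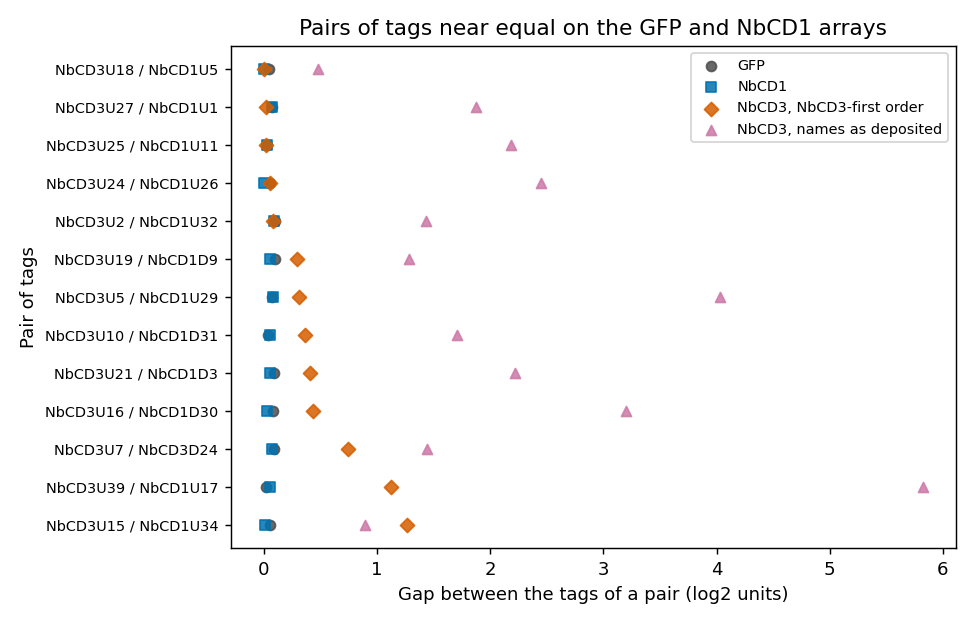
Gap in log2 units (horizontal) between the tags of each of the 13 pairs that lie within 0.1 on the GFP and NbCD1 arrays, shown for the GFP array, the NbCD1 array and the NbCD3 array in both readings. The triangles for the deposited names run from 0.48 to 5.82, and the diamonds for NbCD3-first order run from 0.002 to 1.27.

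On the GFP array the 42 tags ranged from 57.8 to 27958 RMA intensity units, with a median of 4839. On the NbCD1 array they ranged from 193.9 to 32996, with a median of 5725. On the NbCD3 array they ranged from 63.6 to 32339, with a median of 7477. The median was thus lowest for GFP and highest for NbCD3. That of the other 112 tags was 4431 on GFP, 3670 on NbCD1 and 3143 on NbCD3. Those 112 hold 29 NbCD3 D and 39 NbCD1 D tags, with D read as down, beside 44 NbCD1 U tags. They are therefore not a neutral background for the 42. With the names as deposited, the NbCD3 median of the 42 tags was 6414 and that of the others 3751. Below 1000 units lay 14 of the 42 tags on the GFP array and 6 on each of the NbCD1 and NbCD3 arrays. Of all 154 tags, 35 lay below it on GFP, 28 on NbCD1 and 29 on NbCD3. No background level or detection call came with the values, so how far these dim tags stood above background is unknown.

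NbCD3 against GFP addressed which of the tags also differed on the array. Of the 42 tags, 31 were higher on the NbCD3 array and 11 lower, where 66 of all 154 were higher. The median log2 ratio of the 42 tags was 0.58, beside -0.16 over all 154 tags. At least 2-fold higher were 16 tags, which is 38.1%, where 19.5% of all tags were, and 12.5% of the other 112. Among the 44 NbCD1 U tags, 13 (29.5%) were, with a median log2 ratio of 0.32. Shares over all tags, here and below, include the D tags. Of these, 1 of 29 NbCD3 D and 0 of 39 NbCD1 D tags were at least 2-fold higher in this comparison. At least 2-fold lower was 1 of the 42 tags, where 12.3% of all tags were. The remaining 25 of the 42 tags lay within 2-fold. At the 4-fold level used for selection, 5 were higher, where 4.55% of all tags were, and 1 was lower, where 5.84% were. Nearest to the 2-fold line were NbCD3U28, just inside at a log2 ratio of 1.01, and NbCD3U34, just outside at 0.98.

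With the names as deposited the same comparison gave 17 tags at least 2-fold higher, where 37.7% of all tags were, and 13 at least 2-fold lower, where 35.7% were. The median was then 0.37, beside 0.14 over all tags. In that reading the extremes were NbCD3U23, at 14858 on the NbCD3 array (log2 ratio 8.01), and NbCD3U38, at 130.1 (log2 ratio -7.38).

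The 16 tags past 2-fold differed in how the NbCD1 array stood, and they fall into sets by the direct ratio of NbCD3 to NbCD1, which does not use the GFP array but shares the NbCD3 values with the ratio to GFP. In 4 of them NbCD3 was also at least 2-fold above NbCD1. The clearest was NbCD3U1, whose intensity was 647.2 on GFP, 306.6 on NbCD1 and 23010 on NbCD3. It was high on the NbCD3 array alone, 35.6-fold above GFP and 75.1-fold above NbCD1. As deposited, the NbCD3 value for this name was 10705, also the highest of its readings. For NbCD3U14 the intensities were 267.2, 1385 and 3816 on GFP, NbCD1 and NbCD3. Both transgenes thus stood above GFP, with NbCD3 2.75-fold above NbCD1. The NbCD3 value of NbCD3U14 as deposited was 24407, also above both other arrays.

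NbCD3U4 and NbCD3U12 were high on the NbCD3 array and near GFP on the NbCD1 array. NbCD3U4 read 10419 on GFP, 10355 on NbCD1 and 32339 on NbCD3, 3.10-fold above GFP, and this was the highest reading of any of the 42 tags on that array. NbCD3U12 read 1738 on GFP, 2045 on NbCD1 and 6540 on NbCD3, 3.76-fold above GFP. Both turn with the reading, since as deposited the NbCD3 values were 1315 for NbCD3U4 and 358.3 for NbCD3U12, below both other arrays.

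In 10 of the 16 tags the NbCD3 and NbCD1 arrays lay within 2-fold of each other. NbCD3U18 read 6047 on GFP, 27006 on NbCD1 and 27746 on NbCD3. The transgene arrays were near equal, and both were over 4-fold above GFP. NbCD3U40 read 3956 on GFP, 14332 on NbCD1 and 12686 on NbCD3, again close on the transgene arrays. As deposited, the NbCD3 values were 6463 for NbCD3U18 and 6567 for NbCD3U40, each within 2-fold of GFP and more than 2-fold below NbCD1.

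NbCD3U20 read 873.7, 2628 and 2254 on GFP, NbCD1 and NbCD3, and NbCD3U31 read 774.4, 2424 and 1971. In both tags NbCD1 was slightly the higher of the transgene arrays. As deposited, the NbCD3 values were 6410 for NbCD3U20, above both other arrays, and 1222 for NbCD3U31, within 2-fold of GFP. NbCD3U3 read 472.4 on GFP, 1665 on NbCD1 and 2776 on NbCD3, a log2 ratio of 2.56 for NbCD3 and 1.82 for NbCD1. NbCD3U13 read 4804, 10477 and 18066, with log2 ratios of 1.91 and 1.12. In NbCD3U3 and NbCD3U13 the order was GFP, NbCD1, NbCD3 from low to high. Their NbCD3 values as deposited were 1925 and 12538, which keeps that order.

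The other 4 of the 10 tags had NbCD1 values between GFP and 2-fold above it. NbCD3U24 read 10383 on GFP, 17572 on NbCD1 and 23543 on NbCD3. NbCD3U11 read 1568, 2116 and 3686 on the same arrays. Each had its lowest value on GFP and its highest on NbCD3. As deposited, the NbCD3 value of NbCD3U24 was 2371, below both other arrays, and that of NbCD3U11 was 14634, above both. NbCD3U35 read 625.1, 836.4 and 1378, and NbCD3U28 read 792.9, 1269 and 1599, in the same order from low to high. Their NbCD3 values as deposited were far higher, at 14174 for NbCD3U35 and 6999 for NbCD3U28.

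In the last 2 of the 16 tags NbCD1 was the highest array. NbCD3U23, the dimmest of the 42 tags on GFP, read 57.8 on GFP, 515.6 on NbCD1 and 237.7 on NbCD3. Its NbCD1 value was 8.93-fold and its NbCD3 value 4.12-fold above GFP, but all 3 readings were low on the scale of these arrays. NbCD3U25 read 640.9, 4433 and 2216, a log2 ratio of 2.79 for NbCD1 and 1.79 for NbCD3. Its NbCD3 value lay on the 2-fold line below NbCD1. As deposited, the NbCD3 values were 14858 for NbCD3U23 and 16740 for NbCD3U25, above NbCD1 for both.

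The tags past 2-fold were dimmer on the GFP array than those within 2-fold. The GFP median was 833.3 for the 16 tags and 7122 for the 25 tags within 2-fold, and 9 of the 16 lay below 1000 units against 4 of the 25. On the NbCD3 array the medians were 3751 and 8074. The GFP value enters the ratio as well as the level, so these are not separate measures, and the part of low signal in the ratios was not tested.

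At least 2-fold lower on the NbCD3 array than on GFP was NbCD3U36. It read 453.2 on GFP, 238.5 on NbCD1 and 63.6 on NbCD3, a log2 ratio of -2.83, which is opposite to the direction its name gives. It was dim on every array and the dimmest of the 42 on the NbCD3 array. As deposited its NbCD3 value was 7979, above both other arrays. Next toward lower values was NbCD3U6, within 2-fold at a log2 ratio of -0.89.

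Of the 25 tags within 2-fold of GFP, 20 were also within 2-fold of NbCD1 on the NbCD3 array. Their log2 ratios of NbCD3 to GFP ran from -0.89 to 0.73, and their GFP intensities from 539.7 to 27958. They included some of the highest readings. NbCD3U37 read 27958 on GFP, 32996 on NbCD1 and 31520 on NbCD3, the highest of the 42 tags on GFP and on NbCD1. NbCD3U38 read 21589, 25585 and 30531. Across these arrays both tags spanned less than 1 log2 unit, in contrast to NbCD3U1. As deposited the NbCD3 values were 414.7 for NbCD3U37 and 130.1 for NbCD3U38, far below both other arrays.

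**Figure D3:**
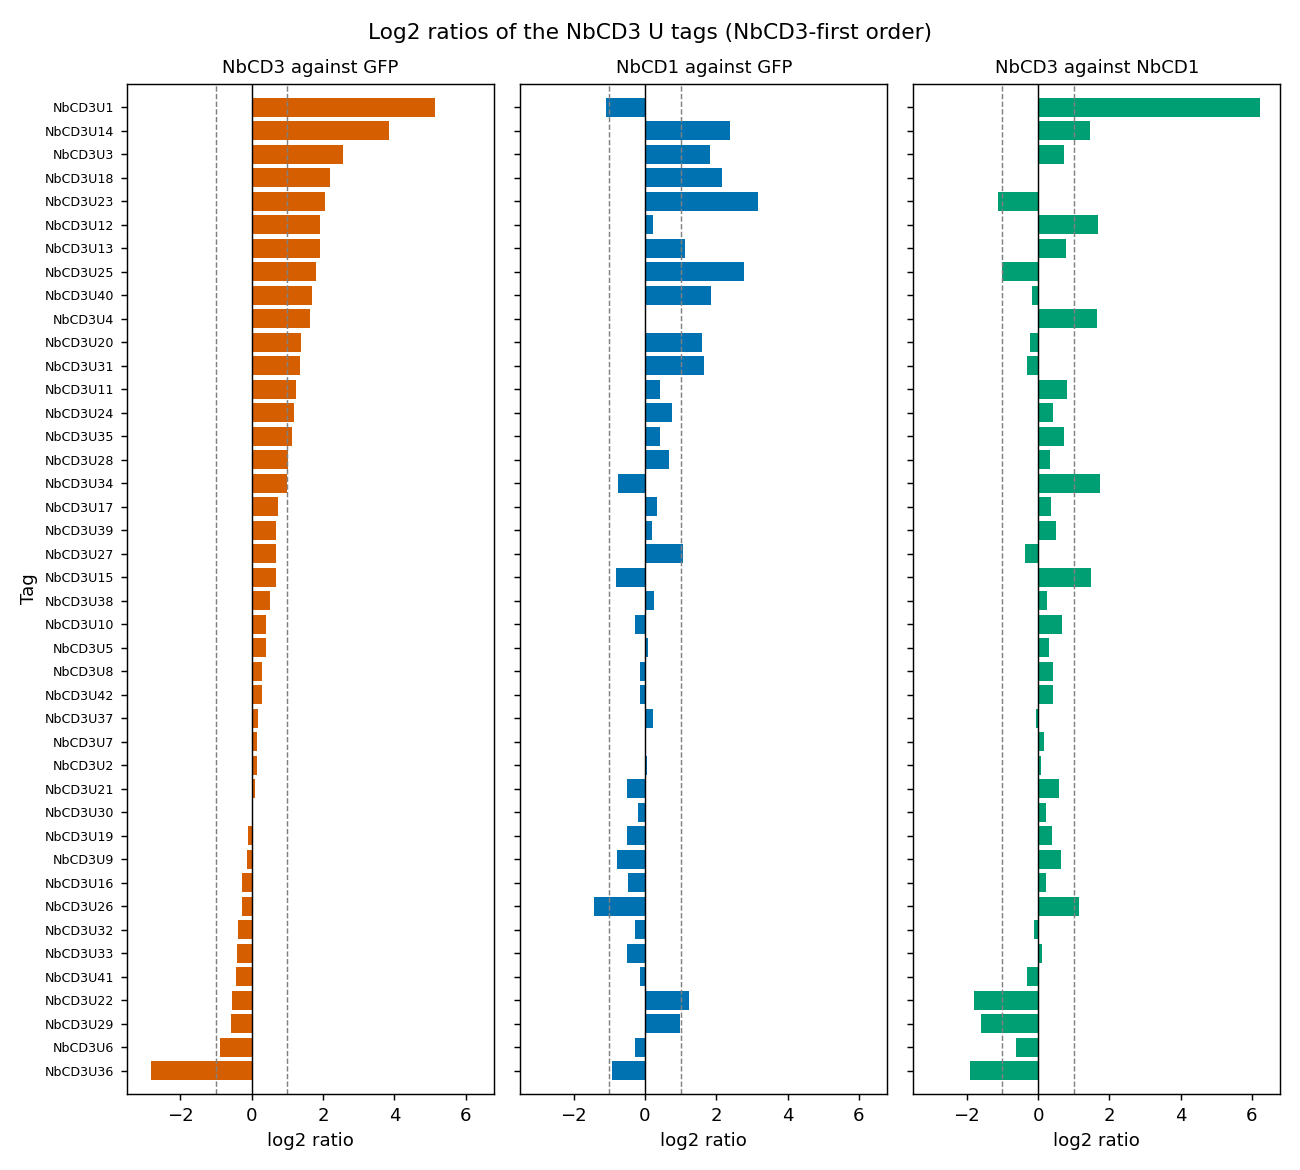
Log2 ratio (horizontal) of each of the 42 NbCD3 U tags for NbCD3 against GFP, NbCD1 against GFP and NbCD3 against NbCD1, all in NbCD3-first order and with the tags sorted by the left panel; dashed lines mark 2-fold and there are no error bars because each group has 1 array. In the left panel 16 bars reach 2-fold to the right and 1 to the left, in the middle 11 and 2, and on the right 7 and 5.

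NbCD1 against GFP asked how the tags picked with NbCD3 stood in leaves overexpressing the other gene. This comparison uses no NbCD3 value and holds for both readings, but it shares the GFP array with the comparison above, so a high or low GFP value moves both in the same direction. At least 2-fold higher were 11 of the 42 tags, 26.2%, where 18.8% of all tags were, and 16.1% of the other 112. Among the 44 NbCD1 U tags, 18 (40.9%) were, with a median log2 ratio of 0.82. Of the D tags, 0 of 29 NbCD3 D and 0 of 39 NbCD1 D tags were. At least 2-fold lower were 2 of the 42 tags, where 11.7% of all tags were. The median log2 ratio of the 42 tags was 0.14, beside -0.23 over all tags. Of the 42 tags 23 were higher and 19 lower, where 60 of all 154 were higher. At 4-fold, 4 tags were higher, where 15 of all 154 tags were (9.74%), which is about the same share, and none was lower (0 of 42), where 4 of all tags were (2.6%).

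The largest ratios of NbCD1 to GFP were those of NbCD3U23 (log2 ratio 3.16), NbCD3U25 (2.79), NbCD3U14 (2.37) and NbCD3U18 (2.16). Past 2-fold in NbCD1 but within 2-fold of GFP on the NbCD3 array were NbCD3U22 and NbCD3U27. NbCD3U22 read 835.2 on GFP, 1982 on NbCD1 and 569.3 on NbCD3, so that NbCD1 was highest and NbCD3 lowest. NbCD3U27 read 3556, 7393 and 5733, with NbCD3 between the others. NbCD3U29 had a similar order to NbCD3U22, at 593.0, 1182 and 392.6, and was just short of 2-fold in NbCD1 (log2 ratio 0.995). A lower value on NbCD1 than on GFP by at least 2-fold was seen for NbCD3U26, at 524.2 on GFP, 193.9 on NbCD1 and 434.1 on NbCD3, and for NbCD3U1, whose readings are given above. NbCD3U26 was the dimmest of the 42 tags on the NbCD1 array (log2 ratio -1.44), and NbCD3U1 passed 2-fold there by little (log2 ratio -1.08). Under the deposited names the NbCD3 values were 3880 for NbCD3U22, 6273 for NbCD3U27, 40.1 for NbCD3U29 and 9326 for NbCD3U26.

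NbCD3 against NbCD1 compared the transgenes without GFP. NbCD3 was higher in 29 of the 42 tags and lower in 13, where it was higher in 74 of all 154. The median log2 ratio of the 42 tags was 0.32, beside -0.067 over all tags. At least 2-fold higher in NbCD3 were 7 tags, 16.7%, where 6.49% of all tags were, and 3 of the other 112 tags. Besides NbCD3U1, NbCD3U4, NbCD3U12 and NbCD3U14 they were NbCD3U34 (log2 ratio 1.73), NbCD3U15 (1.48) and NbCD3U26 (1.16). NbCD3U34 read 3846 on GFP, 2290 on NbCD1 and 7606 on NbCD3, and NbCD3U15 read 5894, 3352 and 9352. In both the NbCD1 value was below and the NbCD3 value above GFP, each by less than 2-fold. Under the deposited names the NbCD3 values were 17366 for NbCD3U34 and 14145 for NbCD3U15. These values of NbCD3U15 and NbCD3U34 were given after they had been seen.

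At least 2-fold lower in NbCD3 than in NbCD1 were 5 tags, where 15.6% of all tags were. They were NbCD3U36 (log2 ratio -1.91), NbCD3U22 (-1.80), NbCD3U29 (-1.59), NbCD3U23 (-1.12) and NbCD3U25, which lay on the 2-fold line. At 4-fold, 1 tag was higher in NbCD3, NbCD3U1, where 1.3% of all tags were, and none was lower (0 of 42), where 1.95% were. All 5 tags on the lower side were below 1000 units on GFP, with 57.8 as the lowest and 835.2 as the highest value. GFP does not enter this ratio, however. On the NbCD1 array NbCD3U25 (4433), NbCD3U22 (1982) and NbCD3U29 (1182) lay above 1000 units, and NbCD3U23 (515.6) and NbCD3U36 (238.5) below. On the higher side NbCD3U1 (647.2), NbCD3U14 (267.2) and NbCD3U26 (524.2) were also below 1000 units on GFP. There NbCD3U4, NbCD3U12, NbCD3U15 and NbCD3U34 were above it. With the names as deposited, 14 tags were at least 2-fold higher in NbCD3 than in NbCD1, where 35.7% of all tags were, and 15 at least 2-fold lower, where 34.4% were. The median in that reading was -0.15, beside 0.30 over all tags.

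The pairs with near-equal readings set several members beside tags of the NbCD1 U list. NbCD3U18 and NbCD1U5 read 6047 and 6230 on GFP, 27006 and 27044 on NbCD1, and 27746 and 27785 on NbCD3. NbCD3U25 and NbCD1U11 read 640.9 and 652.6 on GFP, 4433 and 4351 on NbCD1, and 2216 and 2254 on NbCD3. NbCD3U24 and NbCD1U26 read 10383 and 10780, 17572 and 17658, and 23543 and 24407 on these arrays. The pairs were picked for near-equal readings on the GFP and NbCD1 arrays, so a near-equal change between those arrays follows from the choice. On the NbCD3 array, which that choice did not use, 5 of the 13 pairs lay within 0.1 log2 units. The pairs described here were taken from those 5.

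NbCD3U27 and NbCD1U1 lay within 0.076, 0.070 and 0.022 log2 units of each other on GFP, NbCD1 and NbCD3, and NbCD3U2 and NbCD1U32 within 0.097, 0.091 and 0.081. In all 5 pairs within 0.1 on every array the partner was an NbCD1 U tag, as it was in 8 of the 13 pairs. Of the 112 tags outside the 42, 44 are NbCD1 U tags. Pairs without a member were not counted, so how often other tags pair this closely is unknown. Whether the tags of a pair come from the same transcript was not tested, since no sequences were at hand. By contrast NbCD3U39 and NbCD1U17, within 0.060 on the GFP and NbCD1 arrays, differed by 1.12 on NbCD3, at 13979 and 6418. Without the 5 members, 13 of 37 tags were at least 2-fold higher in NbCD3 than in GFP and 8 of 37 in NbCD1, where 19.5% and 18.8% of all tags were. The median log2 ratio of NbCD1 to GFP turned from 0.14 to -0.003, beside -0.23 over all tags. All 5 members read higher on NbCD1 than on GFP, so this step left out positive ratios only. It therefore cannot decide the direction of that median, which stayed close to no change. Under the planned scalings, low-tag filter and pseudocount the median lay between 0.023 and 0.22.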

How the data were processed

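Biotin-labelled total RNA of 3 leaf samples was hybridised to 1-colour arrays, per the labels. The authors deposited 1 intensity per tag and array, which per the submitters' processing notes came from RMA (version not stated). The scale is linear, and the log2 of all 462 deposited values lies within 6.8e-10 of a number with 3 decimals, to which it was rounded here. The labels name no scanner, number of probes per tag, background or filter. The number of arrays limits the precision.

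Samples were grouped by source name. Log2 ratios between arrays were taken with no pseudocount or filter, and tags were counted at 2-fold, inclusive. The share of all 154 tags past 2-fold is given beside the first count of each comparison and direction. Members, reading order and comparisons were chosen with earlier results of these data known. Tags were named where they passed 2-fold against GFP in NbCD3 or NbCD1, or were the extreme of a comparison or array in either reading, and all others are given by count and range unless stated.

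Alternatives were scaling to each array's median or 75th percentile, quantile normalization, leaving out the 25% of tags lowest in mean level, a pseudocount of 1413 units (the 25th percentile of all values), thresholds of 1.5-fold and 4-fold, the deposited names, and, added after the data were seen, leaving out 5 members near equal to an NbCD1 tag on all arrays. Scripts ran in Python 3.11.15 with scipy 1.17.1, pandas 2.3.3, numpy 2.4.6 and matplotlib 3.10.9. Reordering was checked on a simulated array with a planted wrong order, which cannot show which order of the deposited values is right.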

Additional observations from a re-analysis of the deposited data

Results flagged for a closer look

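NbCD3U1 was past 2-fold in opposite directions in the comparisons with GFP, higher in NbCD3 (log2 ratio 5.15) and lower in NbCD1 (-1.08), and the arrays of the transgenes differed by 6.23 log2 units. With 1 array a group, this difference was not tested. The log2 ratio of NbCD1 to GFP was -0.995 with median-centred arrays, -0.94 after quantile normalization and -0.26 with the pseudocount, so that under these settings the tag was not past 2-fold in NbCD1.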

How the results depend on the processing

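No paired analysis was possible because there was only 1 array a group. Median centring shifted the log2 ratio of the median tag, over all tags, by 0.20 for NbCD3 against GFP, from -0.16 to 0.036, and by 0.11 for NbCD3 against NbCD1. Of the tags past 2-fold among the 23 chosen by rule and NbCD3U15 and NbCD3U34, none changed the sign of that ratio under centring, quantile normalization or the pseudocount. The filter on low tags changes no ratio and leaves 32 of the 42 tags.

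For NbCD3 against GFP, the 16 higher tags were 9 with the pseudocount and 5 at 4-fold. The 1 lower tag became 0 with the pseudocount and when the lowest 25% of tags were left out, 3 at 1.5-fold and 13 with the deposited names. For NbCD1 against GFP, the 11 higher tags were 7 without the lowest tags, 3 with the pseudocount and 4 at 4-fold. The 2 lower tags were 1 after median centring, quantile normalization or the filter, 0 with the pseudocount or at 4-fold, and 6 at 1.5-fold. The median of 0.14 became -0.003 without the members near equal to an NbCD1 tag. For NbCD3 against NbCD1, the 7 higher tags were 14 at 1.5-fold or with the deposited names and 1 at 4-fold. The 5 lower tags were 2 after quantile normalization, 1 without the lowest tags, 0 with the pseudocount or at 4-fold and 15 with the deposited names. The median turned from 0.32 to -0.15 with the deposited names.

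Among ratios past 2-fold in NbCD3-first order, the deposited names turned the log2 ratio to GFP of NbCD3U4 (-2.99), NbCD3U12 (-2.28), NbCD3U24 (-2.13) and NbCD3U36 (4.14). They likewise turned the ratio to NbCD1 of NbCD3U4 (-2.98), NbCD3U12 (-2.51), NbCD3U22 (0.97), NbCD3U23 (4.85), NbCD3U25 (1.92) and NbCD3U36 (5.06). Among the same tags, ratios within 2-fold that changed sign were those to GFP of NbCD3U22 (2.22), NbCD3U26 (4.15), NbCD3U37 (-6.08) and NbCD3U38 (-7.38), and those to NbCD1 of NbCD3U18 (-2.06), NbCD3U20 (1.29), NbCD3U24 (-2.89) and NbCD3U38 (-7.62). Tags of low signal lost the most with the pseudocount by its construction. Without background values it is unknown how many of them were detected.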
